A study of Mus musculus with 10 samples.

Results

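The genes Foxo1, Foxo3 and Foxo4 were followed across the accessible regions of muscle stem cells, the resting cells beside the muscle fibre that rebuild it after injury, from aged and young C57BL/6 mice. Their regions were chosen by position alone: touching or overlapping rows of each peak list were merged, and a region was taken if its strongest summit, by the caller's −log10 q, lay within 50 kb of the gene's span in mm10. This rule found 79 of the 117284 regions of the aged list and 91 of the 131656 regions of the young list. The Foxo1 locus held 37 aged and 42 young regions, the Foxo3 locus 34 aged and 40 young regions, and the Foxo4 locus 8 aged and 9 young regions.

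ATAC-seq marks accessible DNA by letting a transposase insert adapters into it, and was run on cells sorted by flow cytometry for α7-integrin and CD34 and kept for 2 h in DMEM with fetal bovine serum and bFGF. The design had 3 samples of aged cells with prostaglandin E2 (PGE2), 3 of aged cells with vehicle, 2 of young cells with PGE2 and 2 of young cells with vehicle. Aged mice were 20 to 25 months old, young mice 8 to 20 weeks, and the vehicle was 0.1% DMSO. All 4 groups shared the strain, the sort, the medium and the 2 h in culture, and the sources used here state neither the sex of the mice nor whether mice were pooled for a sample. The values analysed were 1 list of peaks from aged cells and 1 from young cells, both after PGE2. PGE2 is an inflammatory lipid mediator that acts on cells through G protein-coupled receptors. The comparison asks which regions were accessible at each age after PGE2; vehicle lists were not analysed here, so a difference between ages cannot be told apart from a difference in the response to PGE2. With 1 list per age and no value per library, no difference between ages has a replicate error, and no p-value is given.

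FoxO proteins are forkhead transcription factors at the end of the insulin and growth factor pathway. When that pathway is active, the kinase AKT phosphorylates them and they leave the nucleus; when it is quiet, they stay there and switch on genes of cell cycle arrest, stress defence and autophagy. In mouse muscle stem cells FoxO factors, Foxo3 above all, are known for keeping the cells quiescent, and in the muscle fibre they drive genes of protein breakdown.

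The depth of each library is unknown, and the precision of a height rests on the fragments at its summit. A height is printed as the authors' fold over background, with a 95% Poisson interval in brackets where given; a share of regions has an exact Clopper-Pearson interval. Both cover counting error only and no replicate error, because each age has 1 list. Duplicate removal is not stated. Where copies made by PCR remain, fragments are not independent molecules, and the Poisson interval is then too narrow even for counting error. The uniform background behind the folds was 19.8 fragments in the aged list and 21.7 in the young list, and the median region had a fold of 4.32 in the aged list and 4.89 in the young list. A fold was therefore read only against other folds of its own list, and a percentile, by −log10 q, is a rank within that list; ranks in lists of unequal length show no change by themselves. Checked against the sorted cell type, all 10 muscle stem cell markers examined, Pax7 and Myf5 among them, had a region within 1 kb of a gene end in both lists. Of 4 endothelial markers, 1 (Kdr) had such a region in both lists, Cdh5 in the young list only, and Pecam1 and Tie1 in neither. Of 4 immune markers, Cd68 had one in both lists and Ptprc, Adgre1 and Cd3e had none in either. Fibroblast markers had one in both lists for 3 of 4 genes (Ly6a in the aged list only), smooth muscle markers for 3 of 3 and mature fibre markers for 3 of 4 (Myh4 in the young list only). Of all protein-coding genes, 63.3% had one in both lists. Among markers with a RefSeq start site, Ckm, Acta1, Tie1, Ptprc and Cd3e had no region within 1 kb of it in either list. Rgs5 and Myh4 had one in the young list only. The stem cell markers with such a site, and Pdgfra, Kdr, Cd68 and Acta2, had one in both lists. The part that other cells or library depth play in the values below was not tested.

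Foxo1 (gene 56458) spans chr3:52268337-52350109 on the plus strand, and Foxo3 (gene 56484) spans chr10:42181845-42276695 on the minus strand. Foxo4 (gene 54601) spans chrX:101254261-101260873, and its distances are counted from the lower-numbered end of that span. The RefSeq sources used gave no strand or start site for Foxo4, and that end is called its start below. RefSeq promoter sequences of GRCm38.p6, from 250 bases before to 50 bases after the start site, matched 2 of the 3 genes, Foxo1 and Foxo3. They are shown because both windows lay wholly inside the widest and strongest region of their locus in both lists. Capitals mark the GC box GGGCGG, the motif of the SP and KLF factors, and the core TGACG of the cAMP response element, each on either strand, 5′ to 3′ along the gene.
Foxo1, chr3:52268087-52268386, plus strand: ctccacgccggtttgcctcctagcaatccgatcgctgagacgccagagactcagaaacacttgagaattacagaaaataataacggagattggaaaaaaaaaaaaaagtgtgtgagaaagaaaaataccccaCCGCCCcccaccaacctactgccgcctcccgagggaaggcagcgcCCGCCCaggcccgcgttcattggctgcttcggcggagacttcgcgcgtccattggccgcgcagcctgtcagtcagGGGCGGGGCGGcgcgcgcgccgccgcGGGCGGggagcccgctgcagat
Foxo3, chr10:42276646-42276945, minus strand: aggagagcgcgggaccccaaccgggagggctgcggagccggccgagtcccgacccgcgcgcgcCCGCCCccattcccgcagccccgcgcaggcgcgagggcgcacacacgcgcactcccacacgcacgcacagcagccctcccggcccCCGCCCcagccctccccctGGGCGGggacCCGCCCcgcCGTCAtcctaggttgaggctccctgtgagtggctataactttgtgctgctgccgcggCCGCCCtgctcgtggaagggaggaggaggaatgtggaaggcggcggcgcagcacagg
Both promoters were rich in CpG. The Foxo1 window had 31 CpG, more than 86.6% of 17492 RefSeq promoters of protein-coding genes. It was 61.3% G and C, a higher share than in 65.8% of them. The Foxo3 window had 35 CpG, more than 91.3% of these promoters. It was 75% G and C, a higher share than in 95.3% of them. The median promoter had 56.3% G and C and 13 CpG.

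Each of the 2 windows held 5 GC boxes, a motif found at least once in 46.3% of all promoters. The number of boxes per promoter was not ranked. In Foxo1 they began 118 and 73 bases before the start and 2, 7 and 28 bases after it, the pair at 2 and 7 overlapping. In Foxo3 they began 187, 102, 83, 73 and 7 bases before the start. The TGACG core, which CREB-type factors bind and which 23.8% of promoters held, was absent from the letters of the Foxo1 window and occurred once in Foxo3, as CGTCA 64 bases before the start. Neither window held the forkhead motif GTAAACA (2.94% of promoters), the AP-1 motif TGANTCA (7.08%), the E-box CAGCTG (15.1%) or the full element TGACGTCA (2.34%), all searched on both strands. These matches describe letters and not binding.

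All 3 genes had a region at their start in both lists, as did 63.3% of the 21887 protein-coding genes at a gene end, and the Foxo3 start was the strongest of the 3. The Foxo3 start region, chr10:42274516-42278966 in the aged list and chr10:42273708-42279031 in the young list, was 78.4-fold [74.7 to 82.3] and at percentile 98.9 in aged cells and 126-fold [121 to 131] and at percentile 99.2 in young cells. It stood above 91.4% of the strongest gene-end regions in the aged list and above 92.5% in the young list. It was also very wide, 4451 bp with 11 summits in the aged list and 5324 bp with 12 summits in the young list, wider than 99.9% of aged and 99.8% of young regions of any kind. Its highest summit did not lie at the start site: it lay 1103 bp upstream in the aged list and 1125 bp upstream in the young list. The summit at the start site itself was second, 36 bp upstream at 46.9-fold in the aged list and 27 bp upstream at 84.0-fold in the young list, which was 59.7% of the highest summit in aged cells and 66.7% in young cells. The next stood 1449 bp upstream at 33.3-fold in aged cells, 42.4% of the highest, and 1438 bp upstream at 75-fold in young cells, 59.6% of the highest. The 3 summits kept the same order and nearly the same positions in both lists. Within 100 bp of a summit of the other list lay 8 of the 11 aged and 8 of the 12 young summits. The start site of the lncRNA gene Gm38485, chr10:42274809, also fell inside this region in both lists, so the region's width takes in more than the Foxo3 start site. The summit nearest to that site stood 1872 bp into Foxo3 at 2.59-fold in aged cells and 1862 bp into it at 3.96-fold in young cells.

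The Foxo1 start region, chr3:52267247-52271128 in the aged list and chr3:52267286-52271216 in the young list, had its highest summit at the start site. That summit lay 24 bp upstream at 36.1-fold [33.6 to 38.8], percentile 93.3, in aged cells, and 27 bp upstream at 58.6-fold [55.5 to 61.9], percentile 95.2, in young cells. Among the strongest gene-end regions it was unremarkable, above 59.9% of them in the aged list and 62.6% in the young list. It was 3882 bp wide in the aged list and 3931 bp in the young list, with 10 summits each, wider than 99.8% of aged and 99.5% of young regions. That rank is over regions of any kind, with a median width of 380 bp in the aged list and 435 bp in the young list. Width was not ranked among gene-end regions, for Foxo1 or for Foxo3. The second summit was 334 bp upstream at 26.9-fold in aged cells and 320 bp upstream at 46.3-fold in young cells. Further into the gene, a summit at 1785 bp reached 12.7-fold in aged cells and one at 1811 bp reached 21.4-fold in young cells. Of the 10 summits in each list, 7 aged and 7 young ones lay within 100 bp of one in the other list.

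At Foxo4, the smallest of the 3 genes, the start region was the weakest of the 3, chrX:101253647-101255836 in the aged list and chrX:101253546-101255858 in the young list. It reached 27.9-fold [25.7 to 30.3], percentile 90.4, in aged cells and 40.5-fold [38.0 to 43.2], percentile 92.0, in young cells. This was near the middle of all strongest gene-end regions, above 48.5% of them in the aged list and 46.7% in the young list. It held 7 summits in each list, of which 6 aged and 6 young ones lay within 100 bp of one in the other list. The highest stood 157 bp below the lower-numbered end in aged cells and 159 bp below it in young cells. The other end of Foxo4 also had a region, at 6.34-fold in aged cells and 10.7-fold in young cells, which lay within 1 kb of the neighbouring gene Gm614 as well. No region lay within 1 kb of the far end of Foxo1 or Foxo3 in either list. All 3 start regions were at or above percentile 90 of their list, where 52.8% of aged and 60.2% of young genes with a gene-end region had one. The order Foxo3, Foxo1, Foxo4 was the same in both lists, and within each list the counting intervals of the 3 genes did not overlap.

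**Figure D1:**
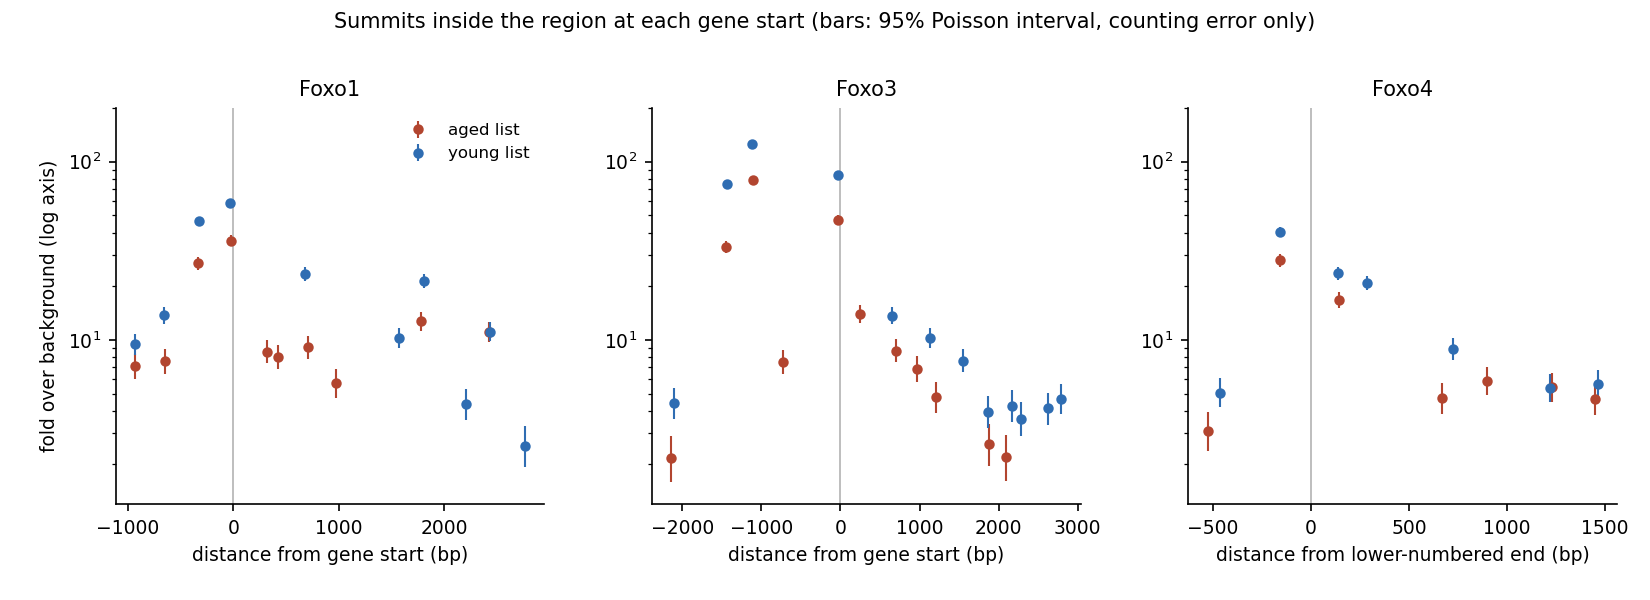
Summits inside the start region of Foxo1, Foxo3 and Foxo4 by distance from the gene's start (bp; for Foxo4, from the lower-numbered end) and fold over background (log axis), aged list in red and young list in blue, bars being 95% Poisson intervals of counting error. Foxo3 has its highest summit 1103 bp upstream in the aged list and 1125 bp upstream in the young list, whereas Foxo1 has its highest 24 and 27 bp upstream; heights of the 2 lists rest on different backgrounds and are not compared.

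Besides its start, Foxo3 had a second very strong region deep inside the gene. It lay 45.3 kb into the span, chr10:42229953-42231905 in the aged list and chr10:42229296-42232115 in the young list, at 64.0-fold [60.6 to 67.5], percentile 98.0, in aged cells and 80.0-fold [76.4 to 83.8], percentile 97.3, in young cells. This height was 81.6% of the start region's in the aged list (counting interval 75.8 to 87.7) and 63.6% in the young list (59.9 to 67.5). The intervals of this within-list ratio did not overlap, but no replicate error stands behind either. Over all protein-coding genes with a gene-end region, the median of the strongest one was 28.9-fold in the aged list and 44.1-fold in the young list, beside 4.32 and 4.89-fold for the median region. The gap between gene ends and the median region was thus wider in the young list as a whole. The next regions followed in the same order in both lists: 68.9 kb into the span at 27.4-fold in aged cells and 34.6-fold in young cells, then 25.2 kb into it at 20.5-fold in aged cells and 21.3-fold in young cells. The fifth strongest was at 31.6 kb in the aged list, 12.0-fold, and at 71.4 kb in the young list, 19.1-fold. Of the Foxo3 regions, 26 of 34 aged and 32 of 40 young ones had their strongest summit inside the span, the start region apart. Regions of at least 10-fold numbered 8 of 34 in the aged list and 13 of 40 in the young list, against 25.4% of all aged and 29.0% of all young regions.

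At Foxo1 most of the strong regions lay upstream of the gene. The strongest was 10.4 kb before the start, chr3:52257720-52258378 in the aged list and chr3:52257549-52258854 in the young list, at 28.2-fold [25.9 to 30.5] in aged cells and 29.8-fold [27.6 to 32.1] in young cells. It reached 78.0% of the start region's height in the aged list (69.9 to 87.0) and 50.8% in the young list (46.2 to 55.7), again with intervals that did not overlap and no replicate behind them. A region 1.55 kb before the start in the aged list and 1.56 kb before it in the young list had 14.1-fold in aged cells, 39.1% of the start, and 13.9-fold in young cells, 23.6% of it. The region 30.6 kb into the gene stood at 12.6-fold in aged cells, 35.0% of the start, and 9.86-fold in young cells, 16.8% of it. Of the aged list's 5 strongest, 1 stood higher relative to the start in the young list: 25.7 kb upstream, 7.93-fold in aged cells was 22.0% of the start (18.4 to 25.9), and 16.5-fold in young cells was 28.2% of it (25.0 to 31.5), with intervals that overlapped. A region 5.50 kb upstream at 5.67-fold in aged cells and 5.71 kb upstream at 10.4-fold in young cells was 15.7% of the start in the aged list and 17.8% in the young list, with overlapping intervals. Regions of at least 10-fold were 4 of 37 in the aged list and 5 of 42 in the young list, against 25.4% of all aged and 29.0% of all young regions. The lncRNA gene Gm30125, at chr3:52237447-52256496, covers part of this upstream stretch. It held the strongest summits of 3 aged and 3 young regions, none of them found at one age alone.

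**Figure D2:**
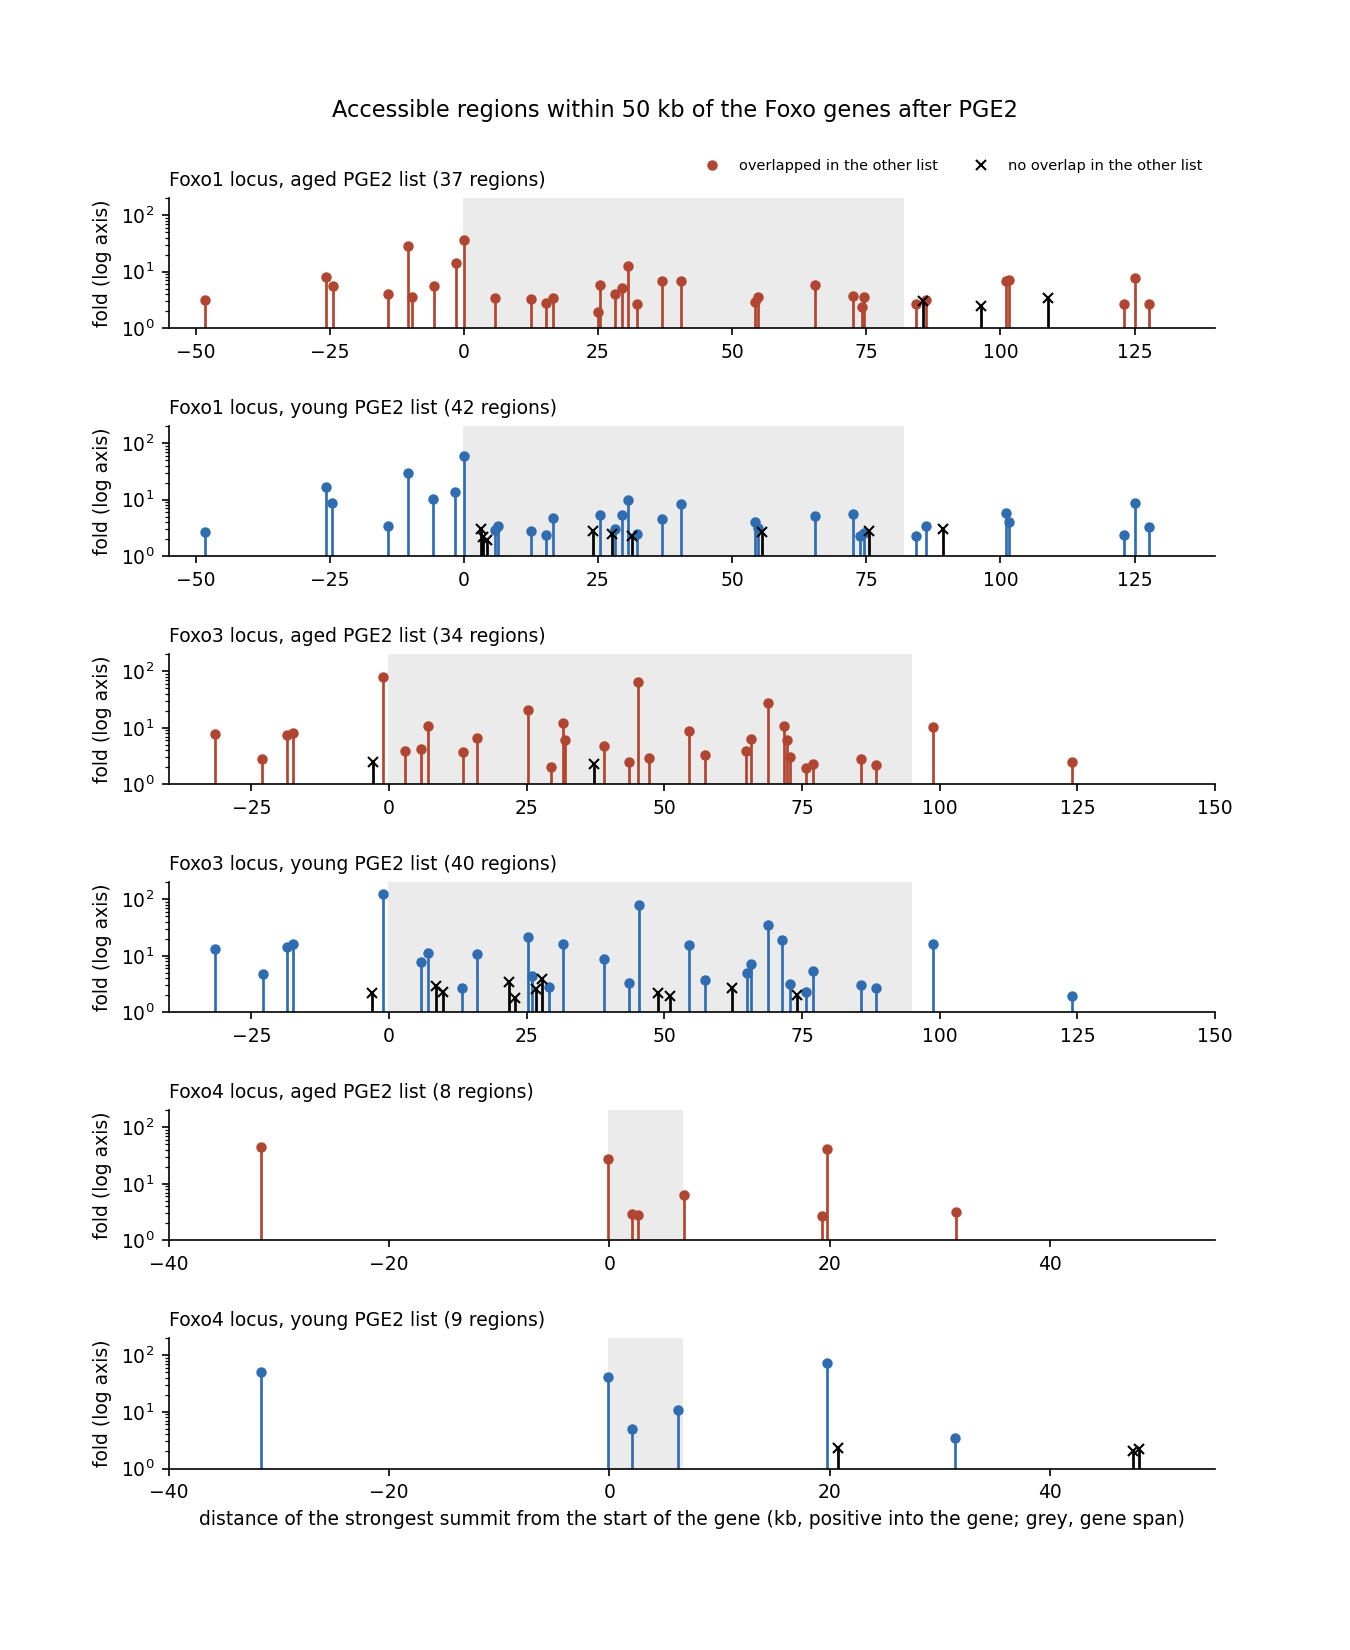
Regions within 50 kb of each gene by the distance of their strongest summit from the gene's start (kb; for Foxo4, from the lower-numbered end) and fold over background (log axis), aged list in red above young list in blue, grey marking the gene span and crosses marking regions with no overlap in the other list. Foxo3 shows a second tall region 45.3 kb into the gene and Foxo1 one 10.4 kb before it, in both lists, while all crosses stand at 3.41-fold or less in the aged list and 3.87-fold or less in the young list.

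The Foxo4 window held several other genes. Its strongest aged region, at the start of Snx12 31.6 kb away, had 44.2-fold, 158% of the Foxo4 start, against 50.1-fold and 123% in the young list. The region at the start of Med12, which encodes a subunit of the Mediator complex, had 41.9-fold in aged cells, 150% of the Foxo4 start, and 72.0-fold in young cells, 178% of it. The Foxo4 start was thus weaker than both of them in both lists. The gene end nearest to the summit was that of Foxo4 for 4 of 8 aged and 3 of 9 young regions. At Foxo1 it was Foxo1's for all 37 aged and all 42 young regions, and at Foxo3 it was Foxo3's for 31 of 34 aged and 37 of 40 young regions.

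Regions found at a single age were weak at all 3 loci, and their share was near that of the whole list. In the aged list 5 of 79 regions, 6.33% (2.09 to 14.2), had no overlap of 1 bp with the young list, against 10.7% of all aged regions. In the young list 23 of 91 regions, 25.3% (16.7 to 35.5), had no overlap with the aged list, against 28.2% of all young regions. Both intervals held the share of the whole list. By gene, the aged-only regions were 3 of 37 at Foxo1 (8.11%, 1.70 to 21.9), 2 of 34 at Foxo3 (5.88%, 0.720 to 19.7) and 0 of 8 at Foxo4, which allows a share of up to 37.5% by 3 counts of the total and 36.9% by the exact interval. The young-only regions were 9 of 42 at Foxo1 (21.4%, 10.3 to 36.8), 11 of 40 at Foxo3 (27.5%, 14.6 to 43.9) and 3 of 9 at Foxo4 (33.3%, 7.49 to 70.1). The whole-list share lay inside the interval of every gene in both lists. The lists were also cut to the 58642 strongest regions of each. Without an overlap in the other cut list were then 5 of 36 aged regions (13.9%, against 11.1% of all). Of the young regions it was 1 of 30 (3.33%, against 15.4% of all). The single-age regions of the full lists, at percentile 38.3 or lower (aged) and 40.5 or lower (young), all fell below the cut. The regions counted here thus overlap a region of the other full list that fell below its cut.

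**Figure D3:**
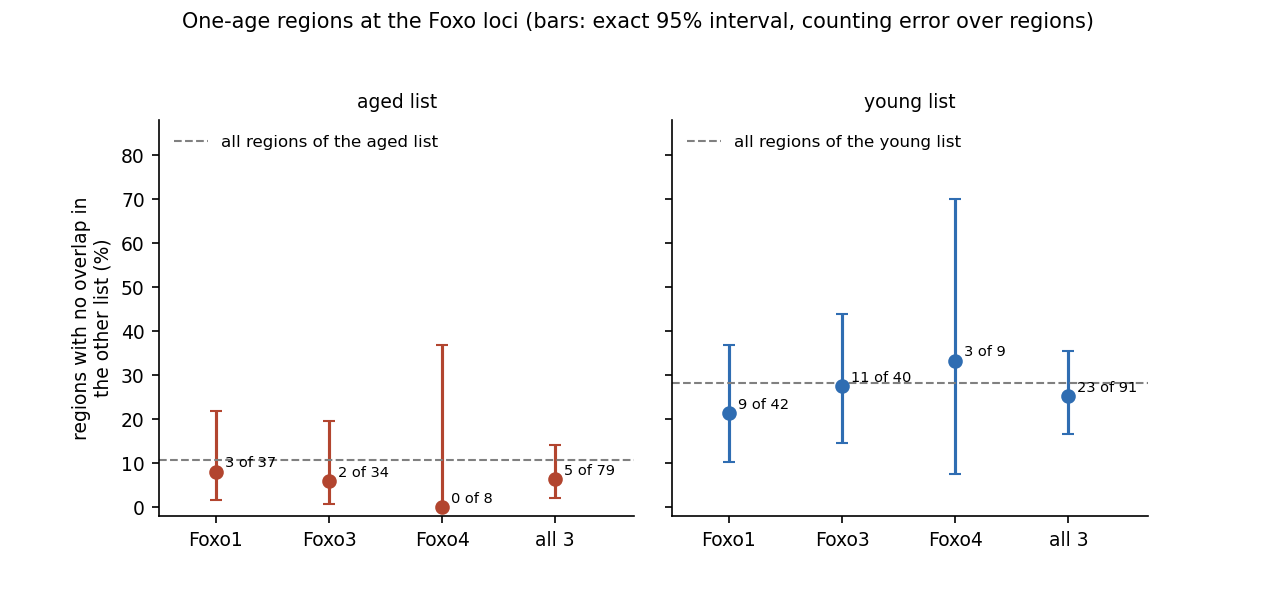
Share of regions with no overlap in the other list (%) at Foxo1, Foxo3, Foxo4 and all 3 loci, in the aged list (left) and the young list (right), bars being exact 95% intervals over regions and the dashed line the share of the whole list. All intervals hold the dashed line, at 10.7% in the aged list and 28.2% in the young list.

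None of the single-age regions reached 10-fold, against 25.4% of all aged and 29.0% of all young regions. The folds and widths of single-age regions over the whole lists are not given here. Their weakness therefore cannot be called particular to these loci. The median fold of the single-age Foxo regions was 2.5 in the aged list and 2.33 in the young list. Their widths ran from 149 to 361 bp in the aged list and from 149 to 555 bp in the young list. The strongest aged-only region, chr3:52376936-52377296, lay 108.9 kb from the Foxo1 start, beyond the gene's far end, at 3.41-fold. The remaining aged-only regions of Foxo1 lay beyond the same end, chr3:52353755-52353903 at 3.08-fold and chr3:52364665-52364860 at 2.5-fold. At Foxo3 the aged-only regions were chr10:42279438-42279586, 2.45-fold and 2871 bp before the start, and chr10:42239397-42239550, 2.26-fold and 37.2 kb into the gene. The first of these lay 192 bp from a young-only region of 2.24-fold, chr10:42279779-42279977, so both lists had a weak region there without touching.

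The young-only regions lay mostly inside the genes, 8 of 9 at Foxo1, 10 of 11 at Foxo3 and 0 of 3 at Foxo4, where 26 of all 42, 32 of all 40 and 2 of all 9 young regions did. Inside a span lay 1 of the 5 aged-only regions and 46 of all 79 aged regions. None of these differences was tested. The 2 strongest young-only regions were in Foxo3, chr10:42248698-42248976 at 3.87-fold and chr10:42254859-42255148 at 3.48-fold, 27.8 and 21.7 kb into the gene. The third of Foxo3, chr10:42268137-42268683 at 2.95-fold, 8.46 kb into the gene, stood below 2 Foxo1 regions at 2.99-fold. All 3 of these Foxo3 regions fall in the span of the lncRNA gene Gm38485, chr10:42247436-42274809, which lies within Foxo3. That span held the strongest summits of 6 aged regions, none of them aged-only, and of 13 young regions, of which 6 were young-only. Over all regions 10.7% were aged-only and 28.2% young-only. The span was looked at after these regions were seen. In Foxo1 the strongest were chr3:52271396-52271554, 3.14 kb into the gene and 267 bp from the aged start region, and chr3:52357440-52357839, 89.4 kb from the start, both at 2.99-fold. The next was chr3:52292427-52292575 at 2.77-fold, 24.2 kb into the gene, a value it shared with a region at 75.5 kb. The 3 of the Foxo4 window stood at 2.33, 2.20 and 2.07-fold and all lay nearest to an end of Med12 or Nlgn3. A region of the other list lay within 1 kb of 2 of the 5 aged-only and 12 of the 23 young-only regions. With such a counterpart counted as shared, the aged-only share fell from 6.33% to 3.80% here and from 10.7% to 5.74% over all aged regions. The young-only share fell from 25.3% to 12.1% here and from 28.2% to 19.0% over all young regions.

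Some young regions were matched by several aged ones. This held for 2 of 79 aged regions (2 young partners each) and 8 of 91 young regions (2 aged partners each), against 1.49% of all aged and 7.76% of all young regions. The young ones included the Foxo3 start region, the Foxo3 region 45.3 kb into the gene and the Foxo1 region 10.4 kb upstream. The Foxo3 region 45.3 kb into the gene covered 1953 bp in the aged list and 2820 bp in the young list. The Foxo regions together covered 41.7 kb in the aged list and 54.7 kb in the young list, where all regions covered 71.6 Mb in the aged list and 92.2 Mb in the young list.

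Regions with exactly 1 counterpart numbered 56 pairs, 29 at Foxo1, 23 at Foxo3 and 4 at Foxo4. Their strongest summits coincided closely, with a median distance of 16.5 bp, against 15 bp over all 81213 pairs of the lists. Summits lay within 100 bp of each other in 51 of 56 pairs, against 90.7% of all pairs. Across the 56 pairs the folds had a Spearman correlation of 0.872, as a description over regions that share 2 lists, against 0.873 over all pairs. The aged member had the higher percentile in 19 of 29 pairs at Foxo1, 5 of 23 at Foxo3 and 1 of 4 at Foxo4, against 34.2% of all pairs. The median difference in percentile, aged minus young, was 8.44 points at Foxo1, -8.47 at Foxo3 and -3.14 over all pairs. The widest gap was a Foxo3 pair 77.0 kb into the gene, percentile 11.3 in the aged list at 2.31-fold and 52.8 in the young list at 5.28-fold. The opposite extreme was a Foxo1 pair 101.7 kb from the start, percentile 66.5 in the aged list at 7.11-fold and 42.1 in the young list at 4.01-fold. These differences of rank have no replicate error and were not tested.

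**Figure D4:**
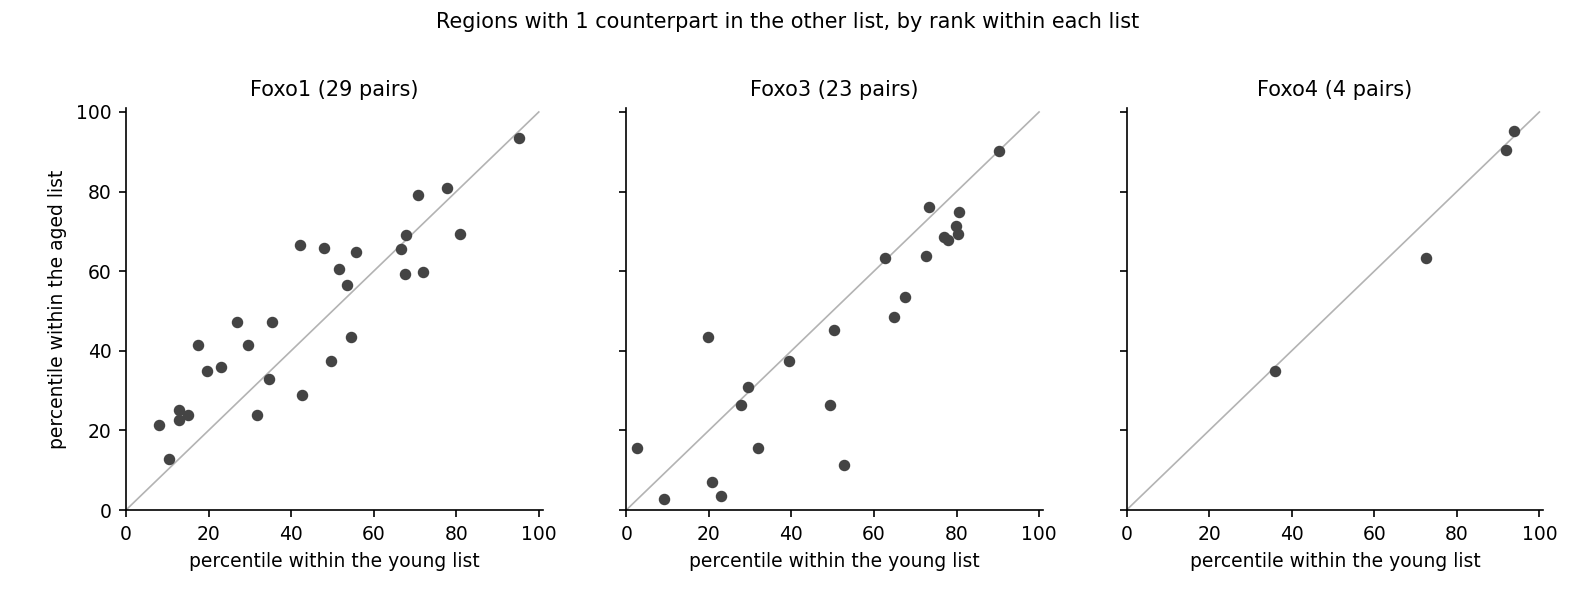
Percentile of each region within the aged list (vertical axis) against that of its single counterpart within the young list (horizontal axis), for 29 pairs at Foxo1, 23 at Foxo3 and 4 at Foxo4, the line marking equal percentiles. Above the line lie 19 of 29 pairs at Foxo1 and 5 of 23 at Foxo3.

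Foxo1 and Foxo3 had more regions around them than most genes. Within 50 kb of its span Foxo1 had 20.4 regions per 100 kb in the aged list and 23.1 in the young list, more than 96.1% of the 21887 protein-coding genes in aged and 97.3% in young cells. Foxo3 had 17.4 per 100 kb in the aged list and 20.5 in the young list, more than 92.9% and 95.3% of genes. Foxo4 had 7.5 per 100 kb in the aged list and 8.44 in the young list, near the median gene with 5.88 and 7.09. Below the median of their list stood 22 of 37 aged and 28 of 42 young regions of Foxo1, and 17 of 34 aged and 22 of 40 young regions of Foxo3. By the Euclidean distance of the square roots of 4 counts (aged, young, aged-only and young-only regions), the genes most like Foxo1 were Gramd1b, Me3 and Retreg1, and those most like Foxo3 were Itpk1, Actn4 and Gng12. For Foxo4, 11 genes had the same 4 counts, the first by name being Blzf1, Bmp8a and Dnajb9. The 50 kb limit left out a strong Foxo1 neighbour 51.2 kb from the span, 35.8-fold in aged and 36.2-fold in young cells. The farthest one inside it, at 48.2 kb, had 3.22-fold in aged and 2.69-fold in young cells. At Foxo3 the farthest inside was at 31.7 kb and the nearest outside at 50.5 kb in the aged list and 50.3 kb in the young list, 4.81 and 2.82-fold. At Foxo4 the nearest outside was 69.0 kb away, 5.57-fold in aged and 13.3-fold in young cells.

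The genes around FoxO in its pathway were mostly accessible at a gene end at both ages. The 51 genes, listed as upstream kinases and receptors, partners, targets or the family member Foxo6, were chosen with earlier results of these data known. Their differences from all genes are therefore descriptions and carry no test. Both lists had a gene-end region for 45 of the 51 (88.2%, against 63.3% of all protein-coding genes). The aged list alone had one for 2 (against 0.480% of all genes), the young list alone for 1 (3.20%), and neither list for 3 (33.0%). Among those with a region, 35 of 47 in the aged list and 41 of 46 in the young list were at or above percentile 90, against 52.8% and 60.2% of all genes. The median fold was 43.1 in the aged list, where all genes with a gene-end region had 28.9, and 74.0 in the young list, where they had 44.1.

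Upstream, both lists had such a region for 14 of 15 genes. By the lower of their 2 within-list percentiles, the highest were Pik3ca, the catalytic subunit of PI3-kinase, at 95-fold in aged and 139-fold in young cells, Irs1, the adaptor of the insulin receptor, at 78.7 and 124-fold, and Pik3r1, the regulatory subunit, at 62.9 and 108-fold. Sgk1, a kinase related to AKT and named after its values were seen, ranked at percentile 73.4 in the aged list, 9.47-fold over 1611 bp, and 99.7 in the young list, 169-fold over 8454 bp. A region is assigned to a gene end here by touching the 1 kb window, so a wide region brings in its highest summit however far off it lies.

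Of the partners and modifiers, both lists had one for 8 of 11. Of the 3 highest by the same measure, Xpo1, the exporter that carries FoxO out of the nucleus, had 178-fold in aged and 246-fold in young cells, Ywhag, a 14-3-3 protein of the kind that binds phosphorylated FoxO, 67.9 and 75.5-fold, and Prkaa1, a catalytic subunit of AMPK, 40.9 and 81.8-fold. Ywhaz, another 14-3-3 protein, had 2.47-fold in the young list alone, and Usp7 and Skp2, which remove and attach ubiquitin, had no gene-end region. Of the targets, 22 of 24 had one in both lists, the highest by the same measure being Pdk4, which turns glucose oxidation down, at 150-fold in aged and 229-fold in young cells, Sesn3, an inhibitor of mTORC1, at 147 and 246-fold, and Gadd45a, a growth arrest gene, at 116 and 185-fold. Cdkn1a, the cell cycle inhibitor p21, had 2.07-fold in the aged list alone, and Trim63, a ubiquitin ligase of muscle atrophy, had none. Foxo6, the remaining member of the family, had 44.9-fold in aged and 72.7-fold in young cells. The states of some genes changed with the position taken: of the 44 genes that have a RefSeq start site, 43 had a region within 1 kb of it in both lists, Cdkn1a, Usp7 and Skp2 included, and Trim63 in neither. Ywhaz was not among the 44, and with windows of 2.5 kb it had a region in both lists.

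**Figure D5:**
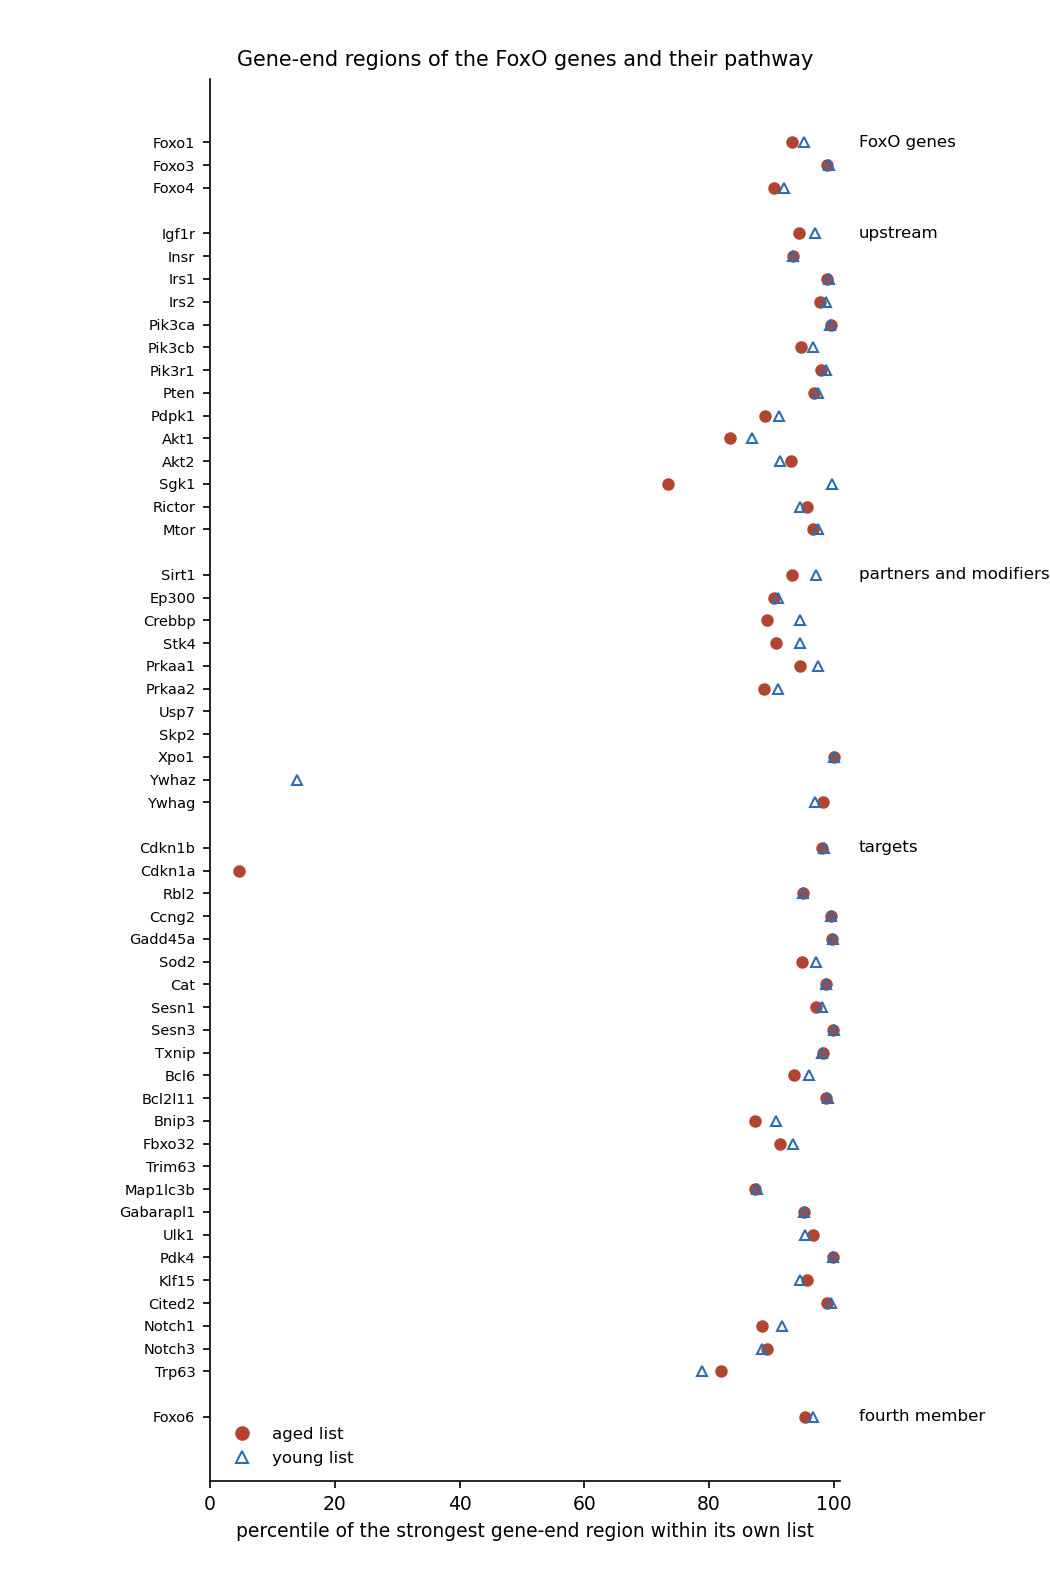
Percentile within its own list of the strongest region within 1 kb of either gene end, for Foxo1, Foxo3, Foxo4 and the pathway genes reported here, by role, aged list as red circles and young list as blue triangles; a gene with no mark has no such region. Most marks lie at or above percentile 90, with Cdkn1a and Ywhaz shown for a single list and Usp7, Skp2 and Trim63 without a mark.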

How the data were processed

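The submitters' processing notes name Bowtie2 and the build mm10 (GRCm38). The deposited values are 2 narrowPeak lists, 1 per age after PGE2. The deposited fold ratio, −log10 q-value and summit offset of each row are the authors' caller's values. The score column was deposited by the authors too and was not used. The caller's version and options, read shifting, duplicate removal and the pooling of libraries are not stated in the labels or file headers. Every fold (100% in each list) was a whole multiple of 1 step, within a tolerance of 0.01 of a step, as (pileup + 1)/(background + 1) gives with a uniform background. This allowed pileups, at least 37 in the aged and 39 in the young list, to be recovered. Whether the unit counted was a fragment or a single read is not stated, and it is called a fragment here. If both ends of a fragment were counted, the Poisson intervals are too narrow. A uniform background does not adjust for local copy number or mappability, and a list made from more fragments is longer at the same threshold.

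Touching rows were merged, 215838 aged rows to 117284 regions and 265507 young rows to 131656. A region was shared if 1 bp overlapped. Gene spans and start sites came from RefSeq tables of GRCm38.p6, the build of the lists; the tables give no exons, so only the inside and outside of a span are told apart. A gene-end region touches 1 kb around either end of the span. Named regions were those at gene ends, the 5 strongest and the 3 strongest single-age ones of each locus and list; named pathway genes were those not found in both lists and, of each role, the 3 highest by the lower of their 2 within-list percentiles; 1 of the listed genes is counted but not reported here. The members and lists were chosen with earlier results of these data known. There were no groups of libraries to test, so no p-value was computed. Shares have Clopper-Pearson and heights Poisson intervals at 95%. The functions were tested on simulated data. Python 3.11.15, numpy 2.4.6, pandas 2.3.3, scipy 1.17.1 and matplotlib 3.10.9 were used. Alternatives were other windows, overlap rules, thresholds, merging of rows and gene-end definitions.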

Additional observations from a re-analysis of the deposited data

How the results depend on the processing

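No paired analysis was possible because the values of each age come as 1 list that names no library; for the same reason no library could be left out. Of 86 alternative values of 10 results, 59 stayed within 1.5 times the count or inside the counting interval. Presence of a gene-end region in both lists held for all 3 Foxo genes under each setting that could be applied to them; RefSeq start sites covered 2 of them, and this setting was chosen after seeing the data. For pathway genes it held for 45 to 49 of 51 under the other settings, and for 43 of the 44 that have a RefSeq start site. Numbers of regions moved by construction: 46 aged and 60 young with the gene span only, 36 and 30 with equal numbers of the strongest regions, and 141 and 172 with rows not merged. Aged-only regions became 3 with a 10 kb window, 1 with the span only, 21 (26.6%) with a reciprocal overlap of 50%, 19 (24.1%) with summits within 100 bp and 3 with a counterpart allowed within 1 kb. Young-only regions became 36.3% with the reciprocal overlap, 11 (12.1%) with a counterpart within 1 kb, 1 (3.33%) with equal numbers and 15.7% of rows not merged. The share over all unmerged rows is not given here, so this last value has no whole-list share beside it. Over all regions the aged-only and young-only shares were 33.9% and 41.2% with the reciprocal overlap, 28.2% and 36.0% with summits within 100 bp, 5.74% and 19.0% with a counterpart within 1 kb, and 11.1% and 15.4% with equal numbers. Pathway genes with a gene-end region in the aged list only became 1 with 500 bp windows, with a −log10 q of at least 5 and with equal numbers, and 0 with 2.5 kb windows and with RefSeq start sites. Those in the young list only became 0 with 2.5 kb windows, equal numbers and RefSeq start sites. The cause of these moves, beyond the settings' own construction, was not tested. The unknown depth of the libraries limits all statements on weak regions.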

Other observations

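Of the 24 FoxO targets listed, 22 matched a RefSeq promoter sequence. The forkhead motif GTAAACA was found, on either strand, in 4 of these promoters, those of Bcl2l11, Sesn1, Trim63 and Txnip, where 2.94% of 17492 promoters held it. Of these 4 genes Trim63, the ubiquitin ligase of muscle atrophy, was the one without a gene-end region in either list. Bcl2l11, which encodes the death factor BIM, stood at 73.9-fold in aged and 122-fold in young cells, Sesn1, a stress-induced sestrin, at 56.2-fold in aged and 93.8-fold in young cells, and Txnip, the thioredoxin-interacting protein, at 66.6-fold in aged and 92.1-fold in young cells. The TGACG core of the cAMP response element was found in 6 of the 22 (Bcl6, Cdkn1b, Klf15, Map1lc3b, Notch3 and Rbl2), against 23.8% of all promoters. The GC box was found in 19 of the 22, against 46.3%. These are descriptions of letters in a list chosen with results of these data known, and they carry no test.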
